A study of Sparassis latifolia with 18 samples.

Results

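A set of 198 genes of the brown-rot fungus Sparassis latifolia had its highest group mean in mycelium that received no pine sawdust, out of 1100 genes in the deposited expression table. These genes were chosen by measured values. The rule took genes with EVM identifiers outside 3 gene lists of the study, with a mean FPKM (sequenced fragments scaled to transcript length and library total) under 300 over 18 libraries, 813 genes in all. It then kept those whose highest and lowest group means of log2(FPKM + 1) lay at least 1 apart and whose highest group was the control. All libraries came from strain SP-C, grown in liquid potato, glucose and fish peptone medium. Fresh pine sawdust, sterilized beforehand, went into the flasks at staggered times, all flasks were harvested together, and filtering separated mycelium from sawdust. The control (CK) had no time of pine sawdust inducing (PSI), and T-1h, T-6h, T-1d, T-5d and T-10d had the time in their names, in hours (h) or days (d), with 3 libraries per group. CK is therefore mycelium without sawdust at the same harvest, and the culture and the strain were shared by all 6 groups.

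Brown-rot fungi break down the cellulose and hemicellulose of wood and leave most of the lignin behind in modified form. This is done with secreted hydrolases and with small oxidants made outside the cell. Mycelium in a sugar-rich broth lives on soluble carbon, and added sawdust brings plant cell wall polymers and the resin compounds of pine. The 198 genes stand outside the study's lists, which carry its annotation. The RefSeq gene table is of another strain, and 0 of their identifiers occurred in it, which does not show that the genes are absent there. The 198 genes are therefore named by identifier with no function and no sequence.

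Of the 18 libraries, 4 (T-5d-2, T-1d-3, T-1h-3 and CK-1) were left out of the study's own comparisons. On log2(FPKM + 1) over the 1100 genes, the 14 kept libraries correlated with their group partners at r of 0.987 to 0.996, and the 4 others with their kept partners at 0.951 to 0.985. The rule that chose the 198 genes used all 18 libraries, and the tests below used the 14. The summed FPKM of the table ran from 103912 to 148824 per library, and no pair of libraries had identical values. The paper gives the reads of each library, but the FPKM values keep no read count per gene. The counting error of a single value is therefore unknown, and the spread between libraries set the errors.

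The summed expression of the 198 genes was lower in each later group. Their summed FPKM was 7866, 10116 and 10174 in CK, 6592, 6473 and 5972 at T-1h, 5655, 5723 and 5641 at T-6h, 5292, 4453 and 4205 at T-1d, 4411, 3905 and 4353 at T-5d and 3422, 3227 and 3345 at T-10d. The 3 CK libraries lay above every library with sawdust and the 3 T-10d libraries below every other one. CK-1 was the lowest of the CK libraries. As a share of the summed FPKM of the table, the genes held 7.02% to 9.70% in CK and 2.19% to 2.34% at T-10d. The table sum itself was 104867 to 112124 in CK and 145948 to 148824 at T-10d. The fall in share thus also holds a rise of the table sum. The median over the genes of the group mean FPKM was 12.2 in CK, 8.27 at T-1h, 7.88 at T-6h, 6.73 at T-1d, 5.59 at T-5d and 4.38 at T-10d. A group mean below CK is what the rule asked for, so these values describe the genes and carry no test. Less RNA per cell and fewer cells that make it cannot be told apart in whole mycelium.

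**Figure D1:**
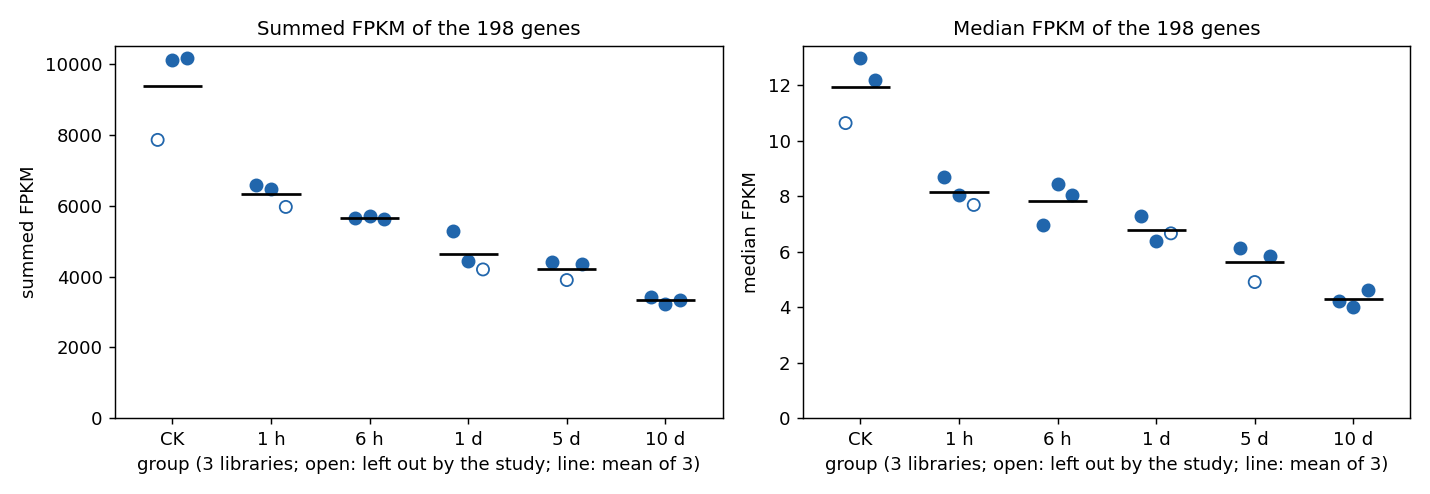
Summed FPKM (left) and median FPKM (right) of the 198 genes in each of the 18 libraries, by group. Filled points are libraries kept by the study, open points the 4 it left out, and lines the mean of 3. All CK sums (7866 to 10174, CK-1 lowest) lie above the rest, and the T-10d sums (3227 to 3422) below it.

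The size of the difference to CK grew with the time of PSI. At T-1h the group mean lay at least 1 below CK on the log2(FPKM + 1) scale in 26 of the 198 genes (13.1%), against 6.73% of all 1100 genes. At T-6h this held for 31 genes (15.7%, against 5.64% of all genes), at T-1d for 64 (32.3%, against 15.7%) and at T-5d for 89 (44.9%, against 19.1%). At T-10d it held for 163 genes (82.3%, against 33.4% of all genes). The rule used these differences, so nothing is read from the shares beyond their sizes. The median difference to CK was -0.52 at T-1h, -0.65 at T-6h, -0.71 at T-1d, -0.97 at T-5d and -1.31 at T-10d. Over all 1100 genes the medians were -0.14, 0.02, -0.09, -0.19 and -0.40, so part of the table moved down at T-10d as well. Relative to those medians the 198 genes lay at -0.38 at T-1h and at -0.91 at T-10d. Quantile normalization, which gives every library the same distribution of values, moved the T-10d median of the 198 genes to -0.79.

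CK lay apart from sawdust in every library in a minority of the genes. The lowest CK library lay above all 15 libraries with sawdust in 60 of the 198 genes (30.3%), against 10.8% of all genes. With the 4 left-out libraries removed, a count chosen after seeing the data, both remaining CK libraries lay above all 12 remaining libraries with sawdust in 138 genes (69.7%), against 21% of all genes. CK-1 lay at or below the highest library with sawdust in 113 of the 198 genes. This was not counted over all genes and is not read as particular to the 198.

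The genes were sorted by their lowest group, which was T-10d in 126 genes (63.6%), T-1d in 37, T-5d in 16, T-6h in 10 and T-1h in 9. This sorting fixes that every other group lies above the lowest one, so only the sizes are described. Those lowest at T-10d had median differences to CK of -0.50, -0.61, -0.54, -0.96 and -1.39 at the 5 times. Those lowest at T-1d had medians of -0.53, -0.78, -1.47, -0.96 and -1.11. The 10 genes lowest at T-6h stood at -1.33 at that time and -0.90 at T-10d, and the 9 lowest at T-1h at -1.34 at that time and -0.93 at T-10d. A fall of the group mean at each of the 5 steps from CK to T-10d was seen in 17 genes.

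**Figure D2:**
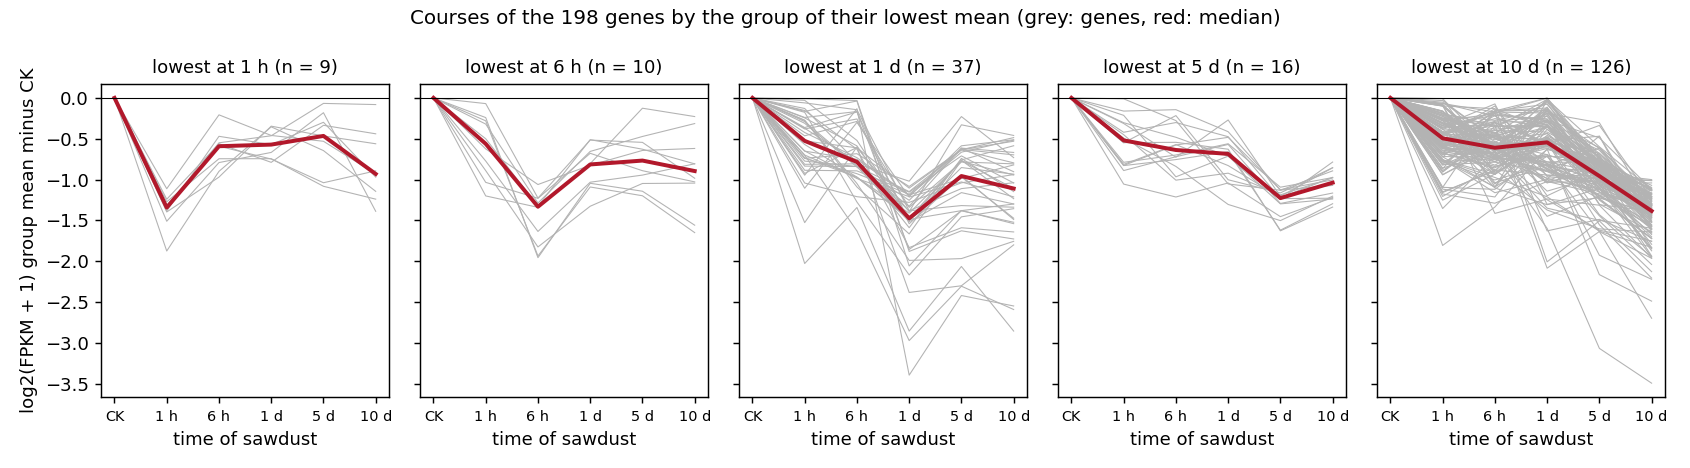
Courses of the 198 genes, split by the group of their lowest mean. Each grey line is the difference of 1 gene's group mean to CK in log2(FPKM + 1) at the 5 times of PSI, and the red line is the median, which reaches -1.34 at T-1h in the first panel, -1.33 at T-6h, -1.47 at T-1d, -1.23 at T-5d and -1.39 at T-10d in the last.

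The size of the difference already present after 1 h varied between the genes. The rule placed T-1h below CK in every gene, so only this size is described. The difference of T-1h to CK, as a percentage of the largest difference of that gene, had a median of 37.0% and quartiles of 19.7% and 57.6%. It was at least 50% in 63 genes and under 10% in 25. Among the groups with sawdust, the highest mean was at T-1h in 84 genes, at T-1d in 57, at T-6h in 39, at T-5d in 12 and at T-10d in 6.

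Most of the genes were weakly expressed. Their mean FPKM over 18 libraries had a median of 7.38 and ran from 0.733 to 269.5, with 109 genes under 10 and 15 at 100 or more. The other 615 EVM genes outside the lists and under the same limit had a median of 34.5. On the log2(FPKM + 1) scale the difference of CK to the lowest group had a median of 1.38, an upper quartile of 1.60 and a maximum of 3.49. It was 2 or more in 13 genes. This scale understates the fold change of weakly expressed genes. All 198 genes passed the filter for testing (FPKM of at least 1 in at least 2 of the 14 libraries), and 5 had a value of 0 in at least 1 library.

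EVM0000005 had the largest difference between CK and its lowest group, 3.49 on the log2(FPKM + 1) scale. EVM0000005 had FPKM values of 229.6, 212 and 209 in CK, 119, 148 and 182 at T-1h, 140.2, 139 and 122 at T-6h, 47.5, 47.3 and 158 at T-1d, 22.9, 30.3 and 22.3 at T-5d and 23.6, 14.01 and 18.5 at T-10d. It stayed above 100 through T-6h, and its T-1d libraries split, since T-1d-3 was above every T-6h library and the kept pair was at 47.5 and 47.3. The fall from T-6h to T-1d was -1.47 ± 0.16 (log2 difference ± SE, limma, Benjamini-Hochberg adjusted p = 2.7e-06) over the 14 libraries and -0.90 ± 0.34 (adjusted p = 0.052) over all 18. From T-1d to T-5d the further difference was -1.03 ± 0.17 (limma, adjusted p = 0.00018).

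EVM0004925 combined high expression with the most abrupt single step. Its FPKM values were 526, 554 and 569.7 in CK, 263, 289 and 304 at T-1h, 499, 512 and 493 at T-6h, 43.4, 46.5 and 66.8 at T-1d, 91.4, 125 and 92.4 at T-5d and 94.9, 87.4 and 97.3 at T-10d. At T-1h all 3 libraries were below CK and at T-6h all 3 were closer to it again, before a drop at T-1d to 43.4 and 46.5 in the kept libraries. The rule used the T-1d mean of this gene, its lowest, so the log2 difference of -3.45 ± 0.07 from T-6h to T-1d is a description. The rise from T-1h to T-6h was 0.86 ± 0.07 (limma, adjusted p = 2.3e-07), short of the 2-fold threshold. T-10d against T-1h gave -1.56 ± 0.07 (limma, adjusted p = 2.6e-10), and this difference was called in all 20 alternative fits.

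EVM0006529 and EVM0001490 fell at the same step. EVM0006529 had FPKM values of 111, 98.9 and 104 in CK, 82.7, 95.8 and 102 at T-1h, 98.4, 106 and 101 at T-6h, 21.96, 22.5 and 29.3 at T-1d, 35.3, 55.9 and 31.5 at T-5d and 39.7, 32.7 and 33.97 at T-10d. Its CK, T-1h and T-6h libraries overlapped, and all 9 later libraries were lower. EVM0001490 had FPKM values of 129.8, 181 and 186 in CK, 63.01, 58.6 and 47.6 at T-1h, 111, 108 and 104 at T-6h, 27.6, 22.4 and 45.9 at T-1d, 27.2, 37.8 and 32.9 at T-5d and 53.00, 40.3 and 46.2 at T-10d. Like EVM0004925, it was lower at T-1h than at T-6h, and no library with sawdust reached the lowest CK value. Across 18 libraries EVM0006529 and EVM0004925 correlated at r = 0.976 on log2(FPKM + 1), as a description of libraries that share groups.

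EVM0009624 and EVM0009176 were among the 5 genes with the highest mean FPKM. EVM0009624 had FPKM values of 241, 437 and 425 in CK, 377, 355 and 225 at T-1h, 293, 277 and 273 at T-6h, 94.2, 85.2 and 70.9 at T-1d, 153, 67.7 and 141 at T-5d and 56.1, 51.6 and 53.9 at T-10d. CK-1 was lower than T-1h-1, T-1h-2 and all T-6h libraries, so CK overlapped with T-1h and T-6h. All T-10d libraries were below every other one. From T-6h to T-1d EVM0009624 fell by 1.64 ± 0.07 (limma, adjusted p = 4.6e-10), and over all 18 libraries the difference was -1.75 ± 0.29. EVM0009176 had FPKM values of 468, 456 and 444 in CK, 146, 196 and 267 at T-1h, 245, 264 and 255 at T-6h, 292, 229 and 334 at T-1d, 111, 136 and 111 at T-5d and 101, 90.5 and 99.3 at T-10d. All 3 CK libraries were above every library with sawdust, T-1h to T-1d overlapped, and the later groups were lower. From T-1d to T-5d EVM0009176 fell by 1.21 ± 0.13 (limma, adjusted p = 4.7e-06).

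The other 2 genes of highest mean FPKM behaved differently. EVM0003719 had FPKM values of 367, 400.2 and 422 in CK, 166, 145 and 139.6 at T-1h, 194, 207 and 204 at T-6h, 341, 334 and 265 at T-1d, 275, 320.2 and 266 at T-5d and 286, 269 and 250.2 at T-10d. It was lowest at T-1h and rose again, so that T-1d, T-5d and T-10d lay between T-6h and CK. EVM0011094 had FPKM values of 281, 349.7 and 361 in CK, 264, 266 and 275 at T-1h, 192, 181 and 178 at T-6h, 135, 133 and 143 at T-1d, 254, 151 and 256 at T-5d and 217, 201 and 202 at T-10d. It was lowest at T-1d, and its T-5d libraries split, with T-5d-2 near the T-1d level and the kept pair at 254 and 256. The rise from T-6h to T-1d of EVM0003719 was 0.74 ± 0.08 (limma, adjusted p = 2.4e-06), which is under 2-fold.

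EVM0002333 and EVM0009867 went down to T-1d and partly up again, while EVM0000503 was lowest at T-10d. EVM0002333 had FPKM values of 209.9, 446 and 469 in CK, 252, 234 and 172 at T-1h, 118, 108 and 115 at T-6h, 49.03, 29.96 and 58.1 at T-1d, 123, 24.5 and 115 at T-5d and 61.7, 55.6 and 55.95 at T-10d. It fell from CK to T-1d, was higher again in the kept T-5d libraries but not in T-5d-2, and was lower at T-10d. From T-1h to T-6h it fell by 1.09 ± 0.15 (limma, adjusted p = 2.2e-05), and T-10d against T-5d gave -1.03 ± 0.15 (limma, adjusted p = 7.1e-05). Over all 18 libraries these were -0.93 ± 0.46 (adjusted p = 0.13) and -0.29 ± 0.46 (adjusted p = 0.69), so neither call held with the left-out libraries. The second was also lost with quantile normalization, with a replicate block and without T-5d-1. EVM0009867 had FPKM values of 19.4, 30.7 and 27.7 in CK, 21.6, 20.6 and 25.4 at T-1h, 9.79, 9.05 and 11.03 at T-6h, 3.96, 4.38 and 6.64 at T-1d, 11.4, 5.08 and 10.8 at T-5d and 9.94, 8.84 and 9.23 at T-10d. It had the same order of groups as EVM0002333 up to T-5d. EVM0000503 had FPKM values of 58.3, 55.04 and 53.4 in CK, 50.3, 48.1 and 50.4 at T-1h, 29.4, 30.4 and 26.6 at T-6h, 43.1, 37.00 and 33.6 at T-1d, 22.3, 13.9 and 19.6 at T-5d and 12.6, 11.2 and 10.1 at T-10d. CK was above all libraries with sawdust, T-1h was close below it, and T-10d was lowest, with T-1d above T-6h in each library.

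EVM0002564 and EVM0002763 rest on few libraries. EVM0002564 had FPKM values of 18.1, 90.5 and 84.9 in CK, 15.3, 13.4 and 13.96 at T-1h, 16.2, 23.96 and 20.8 at T-6h, 49.4, 26.6 and 28.5 at T-1d, 12.2, 10.7 and 9.86 at T-5d and 9.14, 7.98 and 8.32 at T-10d. CK-2 and CK-3 were more than 4 times CK-1, and CK-1 lay within the range of the libraries at T-6h and below those at T-1d. From T-1d to T-5d EVM0002564 fell by 1.64 ± 0.23 (limma, adjusted p = 4.9e-05), called in all 20 alternative fits. EVM0002763 was listed with FPKM of 7.27, 4.99 and 6.67 in CK, 4.59, 0 and 0 at T-1h, 0, 4.06 and 3.603 at T-6h, 0, 0 and 0 at T-1d, 4.18, 0 and 0 at T-5d and 0, 0 and 0 at T-10d. It was listed above 0 in all 3 CK libraries and in 4 of 15 with sawdust, and no fold change is given for it.

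**Figure D3:**
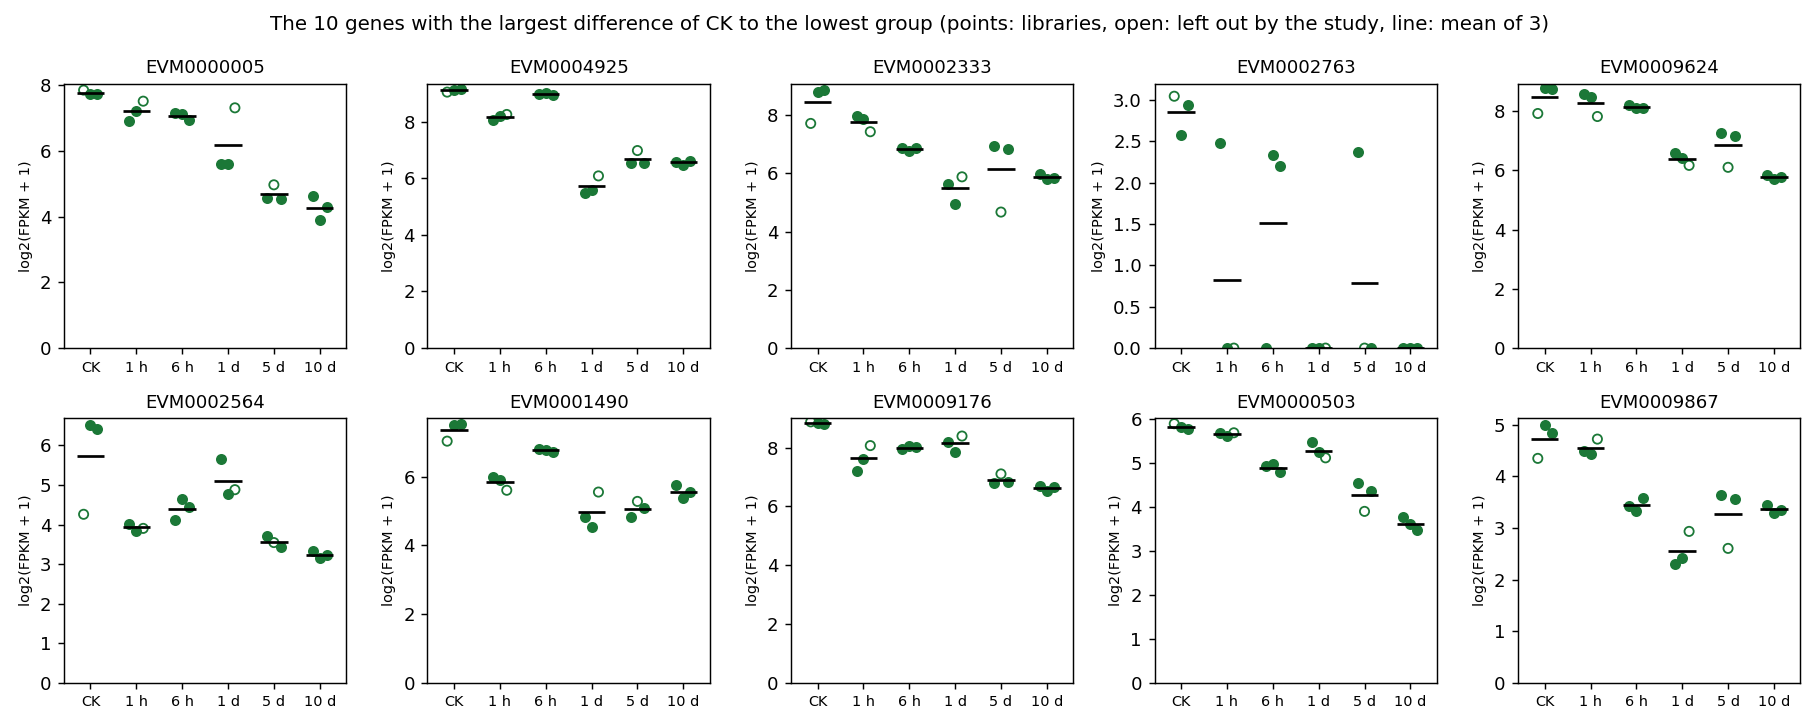
FPKM of the 10 genes with the largest difference of CK to their lowest group, as log2(FPKM + 1) in each library by group. Filled points are kept libraries, open points the 4 left out, and lines the mean of 3, and the panels show late falls (EVM0000005), a drop at T-1d (EVM0004925) and a CK-1 value apart from CK-2 and CK-3 (EVM0002564).

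Whether the genes went on changing once sawdust was present was tested between times of PSI, which needs no CK library. Over the 14 libraries, the call needed a fold change above 2 at an adjusted p below 0.01, the thresholds of the study, and the share called is set beside that of the 1088 genes tested. The rule did use the lowest group of each gene, so each count is also given for the genes lowest at neither of the times compared. Since CK had to be the highest group, the rule also limited how far a gene could rise.

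From T-1h to T-6h, 9 genes were called lower (4.55%, against 7.54% of all genes tested) and 1 higher (0.505%, against 12.2%). Of the 179 genes lowest elsewhere, 5 were lower and 0 higher. At an unadjusted p under 0.05, 61 of the 198 were lower and 24 higher. This mark was not counted over all genes, so nothing is read from it. The median difference was -0.18 for the 198 genes and 0.09 for all genes. EVM0008986, lowest at T-10d, had FPKM values of 62.9, 107 and 108 in CK, 90.1, 87.4 and 77.9 at T-1h, 35.7, 32.2 and 31.8 at T-6h, 44.3, 35.4 and 33.9 at T-1d, 44.6, 22.99 and 43.9 at T-5d and 22.3, 21.5 and 23.4 at T-10d. At T-6h its 3 libraries were below all T-1h libraries, and it fell by 1.39 ± 0.09 (limma, adjusted p = 4.1e-08), called in all 20 alternative fits. The 1 gene called higher was EVM0004524, with FPKM values of 15.9, 13.04 and 11.7 in CK, 4.01, 3.901 and 5.86 at T-1h, 9.85, 9.15 and 9.24 at T-6h, 6.22, 9.03 and 11.6 at T-1d, 11.03, 11.04 and 10.1 at T-5d and 6.903, 5.43 and 6.85 at T-10d. T-1h was its lowest group. With all 18 libraries its rise of 0.91 on log2(FPKM + 1) was below the 2-fold threshold on that scale.

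EVM0008870 and EVM0009116 had the lowest T-6h values relative to T-1h, and nearly the same values as each other. EVM0008870 had FPKM values of 42.9, 76.8 and 71.4 in CK, 56.1, 58.3 and 43.3 at T-1h, 15.2, 13.8 and 16.6 at T-6h, 34.96, 29.5 and 24.7 at T-1d, 28.9, 21.7 and 32.8 at T-5d and 18.6, 21.3 and 21.1 at T-10d. EVM0009116 had FPKM values of 43.4, 74.6 and 69.03 in CK, 54.6, 57.1 and 39.5 at T-1h, 15.9, 13.9 and 15.6 at T-6h, 35.3, 26.4 and 23.4 at T-1d, 27.6, 19.3 and 32.5 at T-5d and 17.9, 19.5 and 18.6 at T-10d. The ratio of EVM0009116 to EVM0008870 ran from 0.883 to 1.04 over the 18 libraries with a median of 0.963, and r was 0.996. Without sequences it is not known whether the 2 genes share reads, so their values are uncertain as separate measurements. T-6h was the lowest group of both, and T-10d against T-1h gave -1.45 ± 0.11 and -1.53 ± 0.12 (limma, adjusted p = 3.0e-08 and 4.8e-08).

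From T-6h to T-1d, 21 genes were called lower (10.6%, against 16.7% of all genes tested) and 5 higher (2.53%, against 5.24%). Of the 151 genes lowest elsewhere, 7 were lower and 4 higher. The median was -0.04 for the 198 genes and -0.21 for all genes, a difference of 0.17 from the median of all genes, which include the 198. With quantile normalization the balance turned to 12 lower and 20 higher (10.6% and 9.38% of all genes). EVM0011403, lowest at T-10d, had FPKM values of 10.1, 10.9 and 14.7 in CK, 14.1, 11.5 and 8.42 at T-1h, 9.31, 11.02 and 10.6 at T-6h, 2.74, 2.06 and 1.77 at T-1d, 4.702, 2.92 and 3.02 at T-5d and 1.97, 1.52 and 2.29 at T-10d. All 9 libraries from T-1d on were below the other 9, and from T-6h to T-1d it fell by 1.74 ± 0.19 (limma, adjusted p = 3.3e-06).

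The genes called higher from T-6h to T-1d depended on which T-1d libraries were used. EVM0001438 had FPKM values of 16.8, 65.9 and 62.2 in CK, 12.2, 10.1 and 9.36 at T-1h, 24.4, 18.2 and 22.7 at T-6h, 80.7, 45.6 and 8.43 at T-1d, 18.5, 52.9 and 17.6 at T-5d and 21.1, 12.7 and 22.00 at T-10d. T-1d-1 was above every CK library and T-1d-3 below every T-6h library. Its rise of 1.45 ± 0.24 (limma, adjusted p = 0.00016) over 14 libraries was 0.55 ± 0.65 (adjusted p = 0.56) over 18. EVM0003521 had FPKM values of 70.1, 236 and 245 in CK, 156, 136 and 109 at T-1h, 77.00, 90.7 and 88.7 at T-6h, 269, 189.8 and 58.8 at T-1d, 128, 25.98 and 131 at T-5d and 49.6, 40.3 and 42.1 at T-10d. The left-out library of each of CK, T-1d and T-5d was well below its partners, and the rise of 1.40 ± 0.13 (limma, adjusted p = 8.7e-07) became 0.75 ± 0.61 (adjusted p = 0.37) over 18 libraries. EVM0007399 had FPKM values of 5.97, 8.29 and 10.01 in CK, 5.72, 4.395 and 3.39 at T-1h, 2.93, 3.34 and 3.29 at T-6h, 9.57, 8.21 and 5.84 at T-1d, 4.43, 4.69 and 4.01 at T-5d and 2.34, 2.72 and 2.72 at T-10d. Its T-1d libraries were all above those of T-6h, and the rise of 1.24 ± 0.14 (limma, adjusted p = 5.9e-06) was called in all 20 alternative fits. The count of genes called higher was 16 without T-1d-2 (7.36% of all genes), 3 without T-1d-1 (4.04%) and 1 with all 18 libraries (2.2%).

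From T-1d to T-5d, 11 genes were called lower (5.56%, against 8.36% of all genes tested) and 6 higher (3.03%, against 11.5%). Of the 145 genes lowest elsewhere, 9 were lower and 0 higher. At an unadjusted p under 0.05, again not counted over all genes, 80 of the 198 were lower and 35 higher. The median was -0.24 for the 198 genes and 0.04 for all genes. EVM0001438 fell by 1.69 ± 0.26 (limma, adjusted p = 0.0001) over the 14 libraries, and the difference was -0.29 ± 0.65 (adjusted p = 0.72) over all 18. The number called lower was 7 without T-1d-1 (6.99% of all genes) and 27 without T-1d-2 (12.2%).

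All 6 genes called higher at this step had T-1d as their lowest group, which the rule used. EVM0008203 had FPKM values of 4.76, 4.79 and 5.34 in CK, 2.31, 2.16 and 1.95 at T-1h, 3.23, 2.18 and 3.45 at T-6h, 1.13, 1.02 and 1.705 at T-1d, 4.22, 2.76 and 4.43 at T-5d and 3.33, 3.197 and 3.47 at T-10d. Its T-1d libraries were below all others, and the kept T-5d libraries were close to CK. Called lower at T-1d and higher at T-5d were 3 genes, EVM0004925, EVM0009867 and EVM0002333. T-1d was the lowest group of each, which favours this pattern, and it was not counted over all genes. The weakly expressed EVM0000296 was called lower at T-5d, its lowest group, with FPKM values of 3.18, 1.68 and 2.56 in CK, 1.79, 1.29 and 2.25 at T-1h, 0.541, 0.896 and 2.02 at T-6h, 2.84, 2.04 and 0.954 at T-1d, 0.385, 0.872 and 0.256 at T-5d and 0.471, 1.24 and 1.04 at T-10d. T-1d-3 at 0.954 was close to T-5d-2 at 0.872, and the call was lost with all 18, without T-1d-1 and without T-5d-3.

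From T-5d to T-10d, 15 genes were called lower (7.58%, against 7.44% of all genes tested) and 0 higher (against 2.94%). At an unadjusted p under 0.05, not counted over all genes, 95 of the 198 were lower and 4 higher. Of the 56 genes lowest elsewhere, 3 were lower. The median was -0.34 for the 198 genes and -0.13 for all genes, and the share called lower was close to that of all genes. With all 18 libraries 0 of the 198 genes were called lower, and 0.274% of all genes. EVM0005561, lowest at T-1h, had FPKM values of 12.3, 43.96 and 37.6 in CK, 10.7, 8.99 and 7.47 at T-1h, 16.4, 14.7 and 15.2 at T-6h, 23.02, 21.5 and 9.61 at T-1d, 32.6, 12.6 and 33.6 at T-5d and 10.6, 7.48 and 11.9 at T-10d. The kept T-5d libraries were above all others but CK-2 and CK-3, T-5d-2 was just above T-10d, and the difference of -1.65 ± 0.15 (limma, adjusted p = 2.2e-06) became -1.21 ± 0.44 (adjusted p = 0.094) over 18 libraries. EVM0001983 had FPKM values of 27.4, 37.4 and 27.8 in CK, 29.9, 30.2 and 21.2 at T-1h, 17.8, 17.03 and 25.9 at T-6h, 14.8, 13.6 and 16.2 at T-1d, 29.3, 13.4 and 26.2 at T-5d and 8.800, 8.81 and 9.72 at T-10d. CK, T-1h and the kept T-5d libraries overlapped, and T-10d, its lowest group, was below every other library.

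Over the whole span from T-1h to T-10d, 75 genes were called lower (37.9%, against 30.6% of all genes tested) and 2 higher (1.01%, against 18.8%). Of the 63 genes lowest at neither time, 16 were lower (25.4%) and 1 higher. The median difference was -0.88 for the 198 genes and -0.35 for all genes, a difference of -0.53 between them. With all 18 libraries 61 were called lower (26.2% of all genes), and with quantile normalization 28 were lower (21%) and 4 higher (23.2%). Of the 198 genes, 56 (28.3%) were called in at least 1 of the 4 steps, against 48.3% of all genes tested. In at least 2 steps 9 were called (4.55%, against 16.7%), and 95 in none of the 5 contrasts (48.0%, against 32.4%). These shares hold on the log2(FPKM + 1) scale, which understates changes of weakly expressed genes, and most of the 198 were weakly expressed. With 0.1 in place of 1 added to the FPKM, 103 were called lower from T-1h to T-10d (34.7% of all genes tested) and 2 higher (19.9%).

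**Figure D4:**
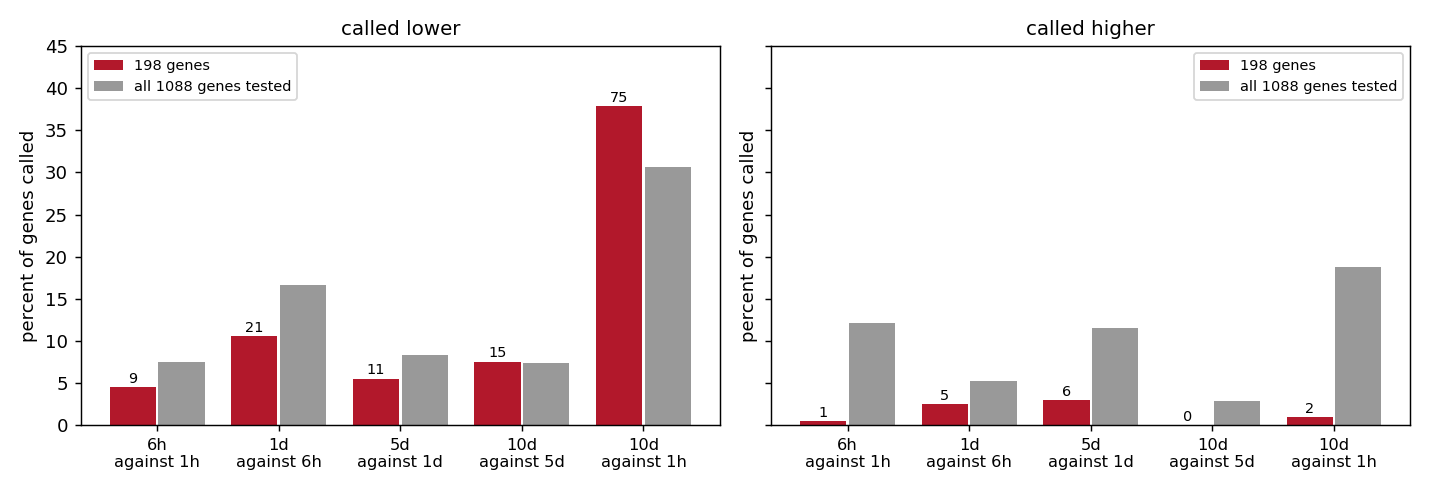
Percent of the 198 genes (red, with the count above) and of all 1088 genes tested (grey) that limma called lower (left) or higher (right) in 5 contrasts between times of PSI. The red bars lie below the grey ones in all 5 contrasts for higher calls, and for lower calls they reach above them only for T-10d, with 7.58% beside 7.44% against T-5d and 37.9% beside 30.6% against T-1h.

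A few genes came back towards CK at T-10d. The T-10d mean lay at least 1 above the lowest group mean in 2 genes and at least 0.5 above it in 23. EVM0012217 had FPKM values of 5.298, 4.202 and 3.61 in CK, 1.28, 0.684 and 1.402 at T-1h, 3.69, 1.68 and 2.82 at T-6h, 2.92, 2.15 and 3.66 at T-1d, 3.54, 6.296 and 2.96 at T-5d and 3.52, 3.96 and 4.68 at T-10d. T-1h was its lowest group, and the T-10d libraries overlapped with CK. EVM0007115 had FPKM values of 43.9, 92.9 and 99.8 in CK, 29.99, 27.9 and 38.05 at T-1h, 29.8, 28.2 and 28.1 at T-6h, 64.3, 37.04 and 31.02 at T-1d, 55.2, 98.9 and 57.1 at T-5d and 67.96, 58.6 and 63.2 at T-10d. Its T-10d libraries lay between CK-1 and the other CK libraries, and T-5d-2 was close to CK-3. T-10d was 1.10 ± 0.16 above T-1h (limma, adjusted p = 2.9e-05), and 0.97 ± 0.30 over all 18 libraries, which is under 2-fold. EVM0003146 had FPKM values of 199, 243 and 243 in CK, 188, 194 and 165 at T-1h, 102, 85.05 and 91.04 at T-6h, 168, 141 and 126 at T-1d, 169.9, 129 and 199 at T-5d and 173, 184 and 191 at T-10d. It was lowest at T-6h, and its T-1d, T-5d and T-10d libraries lay above those of T-6h and below CK-2 and CK-3.

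The control libraries were not alike over these genes. CK-1 minus the mean of CK-2 and CK-3 had a median of -0.29 on log2(FPKM + 1) over the 198 genes and of -0.09 over all 1100. CK-1 was below both partners in 134 of the 198 genes (67.7%), against 51.2% of all genes. CK-1 was at least 1 lower in 19 genes (9.60%, against 10.1% of all genes), and at least 1 higher in 1 gene (0.505%, against 2.91%). The share with a gap of at least 1 downwards was thus close to that of the whole table. The part of culture, library or sequencing in this gap was not tested. T-1h-3 had a median gap to its partners of -0.15 over the 198 genes (-0.06 over all), T-1d-3 of -0.10 (0.05) and T-5d-2 of -0.09 (-0.01). The 2 kept T-1d libraries also differed, with T-1d-1 a median of 0.22 above T-1d-2 over the 198 genes and 0.01 over all.

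The CK-1 gap was widest in EVM0002564 and EVM0001438, given above, and in EVM0008088. EVM0008088 had FPKM values of 14.2, 52.8 and 56.3 in CK, 27.1, 23.4 and 13.2 at T-1h, 15.04, 21.6 and 17.5 at T-6h, 42.9, 29.9 and 12.3 at T-1d, 26.9, 9.25 and 27.2 at T-5d and 8.36, 8.83 and 10.3 at T-10d. All 4 left-out libraries were the lowest of their groups. In the opposite direction, EVM0004593 had FPKM values of 331, 124 and 127 in CK, 103, 126 and 181 at T-1h, 146, 143 and 145 at T-6h, 53.1, 53.99 and 76.6 at T-1d, 79.5, 160.0 and 82.7 at T-5d and 118, 111 and 116 at T-10d. CK-1 alone made CK its highest group, since CK-2 and CK-3 were below all T-6h libraries. EVM0008199 had FPKM values of 19.2, 10.2 and 8.31 in CK, 8.51, 9.21 and 11.1 at T-1h, 9.57, 8.36 and 10.4 at T-6h, 4.17, 3.96 and 5.800 at T-1d, 5.05, 8.33 and 4.77 at T-5d and 4.72, 3.64 and 4.899 at T-10d. EVM0013021 had FPKM values of 7.75, 5.02 and 4.27 in CK, 3.76, 3.17 and 2.25 at T-1h, 2.07, 3.29 and 1.79 at T-6h, 1.01, 0.984 and 2.25 at T-1d, 1.63, 4.198 and 3.14 at T-5d and 1.56, 2.35 and 1.49 at T-10d. In EVM0008199 the CK-2 and CK-3 values overlapped with T-1h and T-6h, while in EVM0013021 all CK libraries were above all others.

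**Figure D5:**
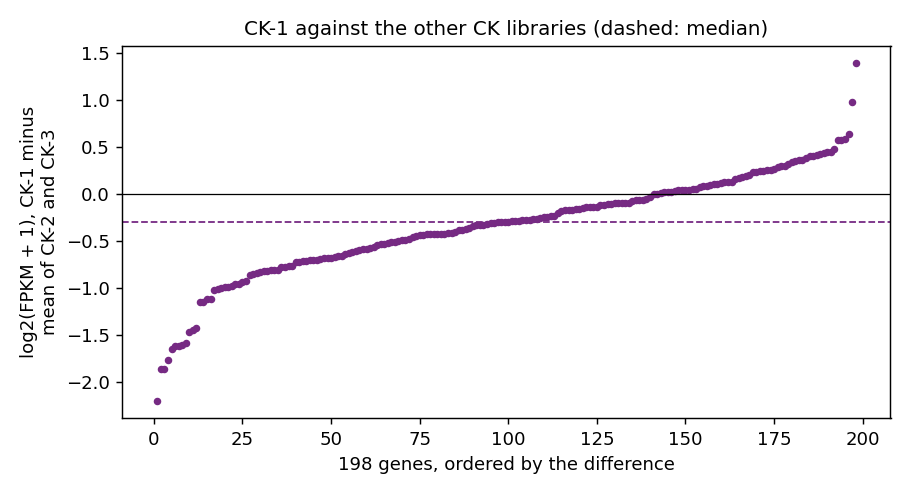
CK-1 minus the mean of CK-2 and CK-3 in log2(FPKM + 1) for the 198 genes, ordered by size, 1 point per gene. The dashed line is the median of -0.29, and 19 genes lie at or below -1.

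Membership depended on the libraries and the scaling. Applied to the 14 kept libraries, the rule gave 202 genes, of which 180 were among the 198 (90.9% of these and 89.1% of the 202). Of the 18 genes lost, 15 had another highest group and 3 a difference under 1. After quantile normalization the rule gave 125 genes, of which 102 were among the 198 (51.5% of these and 81.6% of the 125). All 3 lists shared 97 genes. At the edge of the rule, EVM0005238, EVM0005711 and EVM0009611 lay just inside the limit of 1 with differences of 1.00, 1.01 and 1.01, and EVM0000022, EVM0009820 and EVM0004745 just outside with 0.99, 0.99 and 0.98. At the limit of 300 for the mean FPKM, EVM0003719 with 269.5 and EVM0004925 with 264 were the nearest inside, and EVM0000674 with 369 and EVM0011712 with 420.02 the nearest outside.

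How alike the 198 genes were was described over the 18 libraries, which share 6 groups. The correlation of each gene with the mean standardized course of all 198 had a median of 0.779 and ran from -0.126 to 0.936, with 90 genes at 0.8 or more and 18 under 0.5. Besides EVM0008870 and EVM0009116, the most alike pairs were EVM0010306 with EVM0009684 at r = 0.985 and EVM0003016 with EVM0008088 at r = 0.984.

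Among genes of the study's lists, 14 met every other part of the rule. The study chose them on these libraries, so their direction is no independent evidence. Their median difference of CK to the lowest group was 1.96, and 10 were lowest at T-10d. A median of 56.9% of the difference was present at T-1h. Among the study's lists is that of genes it called at every time, 1 h included, and the rule kept these out of the 198. The early share was thus partly fixed by selection and is not set against that of the 198 genes. The median of CK-1 minus its partners was -1.45 in the 14 genes. They include EVM0008301, annotated as a dioxygenase of the TauD family, whose bacterial founder releases sulfite from taurine, with mean FPKM of 24.8 in CK and 4.60 at T-10d. EVM0012432, annotated as a sugar transporter of the major facilitator type, had 30.3 in CK and 7.15 at T-10d, and EVM0013062, a flavin-binding monooxygenase, had 15.2 and 4.39. EVM0009521 and EVM0012447, both annotated as 50S ribosome-binding GTPases, had 12.5 and 5.92 in CK and 0.928 and 0.637 at T-10d. In EVM0009521, EVM0008301 and EVM0012432 CK-1 (2.33, 8.89 and 11.2) lay below all T-1h libraries. Their CK means thus rest largely on CK-2 and CK-3, while in EVM0012447 all CK libraries lay above all libraries with sawdust. Another 49 newly assembled genes and 7 EVM genes with a mean FPKM of 300 or more also met the rest of the rule.

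The listed genes most like the mean course of the 198 genes over 18 libraries were EVM0004412 (r = 0.947), EVM0007167 (r = 0.937), EVM0010953 (r = 0.934), EVM0008301 (r = 0.902) and EVM0012447 (r = 0.895). The first 3 carry no protein family name in the lists. EVM0007167 had the strongest expression of them, with mean FPKM of 337 in CK, 145 at T-1h, 93.5 at T-6h, 42.04 at T-1d, 50.2 at T-5d and 30.5 at T-10d. The least like were EVM0007359 (r = -0.894), annotated as a polygalacturonase of glycosyl hydrolase family 28, a type of enzyme that cuts pectin, and EVM0010971 (r = -0.891), a cerato-platanin, a small secreted fungal protein. EVM0007359 had mean FPKM of 30.4 in CK and 149 at T-10d, and EVM0010971 had 164 and 739. Libraries of a group share it and are not independent points, so these correlations carry no p.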

How the data were processed

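RNA-seq was made from mycelium of 18 libraries in 6 groups. The authors cleaned the reads, mapped them to the S. latifolia genome, whose build is not named, with HISAT2, assembled transcripts with StringTie, quantified them with an RSEM-based method and deposited FPKM values. The submitters' processing notes also name Bowtie 0.12.2. The header of the table names no unit, and 807 of 807 values compared equalled FPKM columns of the study's lists (relative tolerance 1e-05). How its 1100 genes were selected is not given in the sources used here, so percentages refer to these genes. The table holds no columns of the authors' own comparisons.

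The scale was log2(FPKM + 1). Tests covered genes that reached 1 FPKM in 2 or more libraries (1088 genes for 14 libraries, 1093 for 18). A single model of the 6 groups was fitted by limma 3.58.1 (R 4.3.3), the variance following the mean, with 8 residual and 4.69 prior degrees of freedom. P-values were adjusted by Benjamini-Hochberg over all genes tested. The 3 libraries of a group are biological replicates in the study, and their cultures are not described further. The fitted errors do not hold the departures of the 4 libraries left out.

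The 198 genes, the lists and the tests were chosen with earlier results of these data known. Named genes were the 10 with the largest difference of CK to the lowest group, the 5 with the highest mean FPKM, up to 3 called genes of largest difference per direction and contrast, 3 genes on each side for the CK-1 gap, the 3 highest at T-10d above their lowest group, those nearest to the rule's limits, and the genes of the study's lists with a like or the same course. The pairs of most alike genes and the genes called in more than 1 step were added after their values were seen. Adjusted p-values are printed for named genes only where neither time compared was the gene's lowest group. Alternatives were all 18 libraries, a fit of the 2 groups compared, quantile normalization, no filter, a pseudocount of 0.1, other thresholds, a replicate block and each library left out. Tables used pandas 2.3.3 and numpy 2.4.6 under Python 3.11.15, and figures matplotlib 3.10.9. The limma step was tested on simulated data.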

Additional observations from a re-analysis of the deposited data

How the results depend on the processing

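No median difference to CK and none of the named differences changed sign under an alternative, but quantile normalization turned the balance of calls at T-1d against T-6h. Percentages in parentheses are the shares of all genes tested. With all 18 libraries the counts of the 198 genes called lower were 5 (6.22%) at T-6h against T-1h, 5 (5.31%) at T-5d against T-1d and 0 (0.274%) at T-10d against T-5d. Those called higher were 0 (9.88%) at T-6h against T-1h, 1 (2.2%) at T-1d against T-6h, 1 (8.05%) at T-5d against T-1d and 1 (17.6%) at T-10d against T-1h. With quantile normalization 12 were lower (10.6%) and 20 higher (9.38%) at T-1d against T-6h, 6 lower (4.14%) at T-10d against T-5d, and 28 lower (21%) and 4 higher (23.2%) at T-10d against T-1h. It left 125 genes under the rule and median differences to CK of -0.69 at T-5d and -0.79 at T-10d. A pseudocount of 0.1 gave 2 higher (13.1%) at T-6h against T-1h, and 28 lower (18.5%) and 8 higher (5.7%) at T-1d against T-6h. It gave 21 lower (10.6%) at T-5d against T-1d and 21 lower (8.92%) at T-10d against T-5d. For T-10d against T-1h it gave 103 lower (34.7%) and 2 higher (19.9%), and the T-10d median was -1.56. Without the fold threshold, in the order of the contrasts, 40 (19.9%), 35 (30.9%), 50 (23.4%), 63 (24.5%) and 135 (45.5%) were lower and 18 (28.4%), 32 (14.7%), 22 (29.4%), 3 (12%) and 5 (31.1%) higher. A required difference of 1.5 left 70 genes. In the 14 kept libraries, an alternative chosen after seeing the data, CK lay above all sawdust libraries in 138 genes (21%) in place of 60 (10.8%).

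Leaving out 1 library gave 7 to 12 lower (7.27% to 8.09%) and 1 to 3 higher (11.2% to 13.2%) at T-6h against T-1h, and 19 to 22 (15.9% to 17%) and 3 to 16 (4.04% to 7.36%) at T-1d against T-6h. It gave 7 to 27 (6.99% to 12.2%) and 6 to 7 (8.92% to 13.8%) at T-5d against T-1d, 12 to 16 (6.8% to 7.5%) and 0 to 0 (2.57% to 3.03%) at T-10d against T-5d, and 72 to 83 (29.5% to 31.2%) and 2 to 2 (17.5% to 19.2%) at T-10d against T-1h. The higher count for T-6h against T-1h was 2 without T-1h-1 and 3 without T-6h-2. The rule gave 175 to 222 genes, and the medians ran from -0.65 to -0.44 at T-1h, -0.75 to -0.58 at T-6h, -0.86 to -0.69 at T-1d, -1.09 to -0.90 at T-5d and -1.46 to -1.23 at T-10d. Replicate numbers did not pair the libraries (7 of 45 same-numbered pairs at r over 0.1, from -0.545 to 0.446). The replicate block gave 9 (7.54%), 21 (16.5%), 15 (9.47%), 12 (6.8%) and 73 (30.3%) called lower and 1 (12.1%), 5 (5.33%), 5 (11.2%), 0 (2.76%) and 2 (18.8%) higher.

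Of the 24 differences named for their size within a contrast, 11 lost their call with all 18 libraries, and 13 were called in every alternative. Over all alternatives a call was lost 13 times in 528, where the looser thresholds could lose none. A further set held the 23 called differences of named genes between times that were not the gene's lowest group, some of them among the 24. Of these 23, 12 were called in every alternative. A call was lost 18 times in 460, of which 9 with all 18 libraries. Leaving out a library of a group not compared keeps the difference and alters only its error and adjusted p. The totals of 528 and 460 therefore do not measure how stable the calls are. The causes of the lost calls were not tested. Values near 1 FPKM are compressed by the pseudocount, and the read count behind each value is unknown.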
